A study of Mus musculus with 18 samples.

Results

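The livers described here came from adult mice, 150 days old, whose dams had eaten a high protein diet in pregnancy, and from age-matched controls. The members were chosen by their labels alone: 3 arrays of the high protein group and 3 arrays of the control group, 6 of the 18 arrays of the series. All mice belonged to DUK, an outbred line bred from 4 outbred and 4 inbred lines, and carried no stated genetic modification. In the HP pregnancy group the dam received 40% protein by weight in pregnancy and the 20% control diet in lactation, and in the control group she received 20% throughout. The diets had equal energy, and the offspring's own sex and diet after weaning are not given in the sources used here. For comparison, an HP lactation group (3 arrays at day 150) had dams on 20% protein in pregnancy and 40% in lactation, and HP pregnancy and control groups were also sampled at day 21 (3 arrays each). The comparison asks whether a protein excess met before birth leaves a difference in liver RNA that is still measurable in the adult.

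Each array was hybridised with pooled total RNA, not with RNA of 1 mouse. The labels disagree on the pool size, naming 4 to 5 animals of different litters combined to 3 pools, 3 animals, or 3 to 4 samples at this age. Pools of a group may therefore share animals, and the p-values below measure the spread between pools and may be too small.

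The liver makes a large part of the body's newly formed cholesterol and turns some of it into bile acids. It also holds the enzymes that take amino acids apart and send their nitrogen into urea. Cholesterol synthesis runs from acetyl-CoA through mevalonate, farnesyl diphosphate and lanosterol, and its genes are switched on together by the transcription factor SREBP2 when sterols are scarce. Promoters of sterol-responsive genes commonly pair an SREBP site, the sterol element, with a CCAAT box bound by NF-Y. Liver genes also follow a circadian clock, in which Bmal1 (Arntl) and Clock drive the Per and Rev-erb genes and Dbp, so that both arms run in opposite phase through the day.

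The cholesterol promoters are shown because this pathway had the lowest median among the metabolic lists. Of the 18 pathway genes tested, 15 had a promoter in the RefSeq table (mouse build GRCm38.p6, 250 bases before to 50 bases after the gene start), and in the first promoter listed for each gene 13 of these 15 (86.7%) held the inverted CCAAT box ATTGG on either strand. The same letters occurred in 38.6% of the first listed promoters of all genes tested and in 37.9% of those of all 27025 genes in the table. Pmvk and Dhcr7 have several listed promoters. Counting every listed promoter, 14 of the 15 held the box, all but Erg28, beside 42.8% of all genes tested. The sterol element TCACCCCAC was found in 1 of the 15 (Hmgcs1), and in 0.52% of the 27025 first listed promoters. Ebp passed the test in the comparison below, and Hmgcs1 and Lss were added after their values were seen. Capitals mark ATTGG and, in Hmgcs1, the sterol element.
Ebp promoter, chrX:8193463-8193762, minus strand: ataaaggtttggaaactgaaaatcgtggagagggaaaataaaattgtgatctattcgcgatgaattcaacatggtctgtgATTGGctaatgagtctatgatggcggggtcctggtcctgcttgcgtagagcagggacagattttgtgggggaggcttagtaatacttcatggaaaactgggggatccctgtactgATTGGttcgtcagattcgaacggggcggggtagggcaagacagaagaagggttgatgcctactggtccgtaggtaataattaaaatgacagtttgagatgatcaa
Hmgcs1 promoter, chr13:119690101-119690400, plus strand: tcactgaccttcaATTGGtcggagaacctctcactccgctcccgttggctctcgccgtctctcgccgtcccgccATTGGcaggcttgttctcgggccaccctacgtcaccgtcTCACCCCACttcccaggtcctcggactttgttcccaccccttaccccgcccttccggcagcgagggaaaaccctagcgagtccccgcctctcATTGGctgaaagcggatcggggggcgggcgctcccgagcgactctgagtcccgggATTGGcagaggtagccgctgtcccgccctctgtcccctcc
Lss promoter, chr10:76531355-76531654, plus strand: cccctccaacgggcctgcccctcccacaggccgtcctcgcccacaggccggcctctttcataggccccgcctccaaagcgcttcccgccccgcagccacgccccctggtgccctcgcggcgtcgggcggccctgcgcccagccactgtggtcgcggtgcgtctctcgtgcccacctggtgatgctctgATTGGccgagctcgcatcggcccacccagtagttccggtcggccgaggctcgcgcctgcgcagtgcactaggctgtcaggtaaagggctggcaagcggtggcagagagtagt
In Ebp the box began at bases -170 and -55 from the gene start, in Lss at -62, and in Hmgcs1 at 4 places with the sterol element at -137. A match describes these letters only and is no measured binding.

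Across the liver transcriptome, 290 of 11018 genes (2.63%) differed between HP pregnancy and control livers at an adjusted p under 0.05 (limma on log2 signals of all 18 arrays, Benjamini-Hochberg adjustment over all genes tested). Of these, 168 (1.52%) were higher and 122 (1.11%) lower in HP pregnancy livers, and 25 changed by more than 2-fold. The median change was 0.64 on the log2 scale among the higher genes and -0.62 among the lower ones, against 0.00 over all genes tested. All 290 had groups of arrays that did not overlap, as did 15.1% (higher) and 12.9% (lower) of all genes tested. At an unadjusted p under 0.05 there were 2208 genes, 1182 higher (10.7%) and 1026 lower (9.31%).

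**Figure D1:**
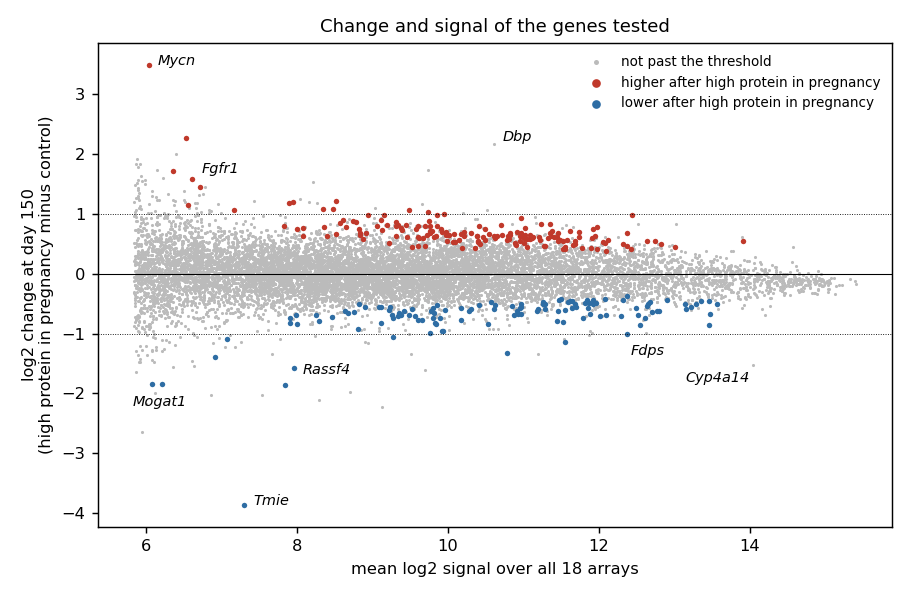
Log2 change at day 150 (HP pregnancy minus control, vertical axis) against mean log2 signal over all 18 arrays (horizontal axis), 1 point per gene tested. Red points are the 168 genes that passed the test and were higher after high protein in pregnancy, blue points the 122 that were lower, and dotted lines mark 2-fold; the widest changes, Mycn and Tmie, lie at low signal.

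The number of genes past the threshold rested on single arrays. Without HP pregnancy replicate 2 it was 2, without control replicate 1 it was 9, and without HP pregnancy replicate 1, HP pregnancy replicate 3, control replicate 2 and control replicate 3 it was 162, 47, 35 and 47. Among the 68 genes named here that passed, 2 (Mycn and Tmie) passed in all 6 of these fits. None of the 68 changed direction, but where groups do not overlap, leaving out 1 array cannot turn the direction.

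RNA quality moved with the groups in part. The 3' to 5' signal ratio of the Gapdh control probe sets was 1.77, 1.67 and 1.80 in HP pregnancy livers, against 1.30, 1.79 and 1.35 in control livers, so that 1 control array lay within the range of the other group. The same ratio of the actin control probe sets was 6.07, 6.50 and 6.25 in HP pregnancy livers, against 4.13, 6.38 and 4.06 in control livers. With the Gapdh ratio as a covariate, chosen after seeing the data, 5 genes passed. The 68 named genes that passed were selected by the fit without the covariate. Among them the median ratio of the change with the covariate to that without was 0.983 (0.561 to 1.31). Fdps had -1.03 with the covariate and -1.01 without, Bend3 1.17 and 1.08, and Rassf4 -1.78 and -1.57. Other changes shrank, such as Rdh16 with -0.33 and -0.59 and Sec31a with -0.48 and -0.74. At day 21 the Gapdh ratio averaged 0.90 ± 0.07 in HP pregnancy livers and 0.94 ± 0.08 in control livers (SD, n = 3 each). The actin ratio averaged 2.39 and 2.54 there. The part of RNA quality in the differences was not tested beyond that fit. Hepatocyte markers (12 of 14 tested) summed to signals of 310811 to 382162 in HP pregnancy livers and 333583 to 419875 in control livers, and 2 of 13 adipocyte and pancreas markers passed the filter on low signals. Xist stayed at or below a signal of 75.3 on the 6 arrays, while HP lactation replicate 4 at day 150 had 11644 and control replicate 2 at day 21 had 7343. The Y-linked gene Eif2s3y had 2112 to 2917 on the 6 arrays. It had 1990 on that HP lactation array and 1431 on that day 21 control array, so both Xist and Y-linked signal were present there. Without the arrays with high Xist signal 591 genes passed.

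Cholesterol synthesis genes were mostly lower in HP pregnancy livers. Of 18 genes tested, 15 had a negative change, 14 had groups that did not overlap, all of them lower (12.9% over all genes tested), and 2 passed the test, both falling (Fdps and Ebp, beside 1.11% of all genes tested). Both calls were lost with equal 75th percentiles (adjusted p = 0.0597 and 0.0768) and with the Gapdh covariate. The median log2 change was -0.61, against 0.00 over all genes tested, and it ranged from -0.76 to -0.46 when each array was left out in turn. With the Gapdh ratio as a covariate it was -0.47.

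Fdps, the enzyme that makes farnesyl diphosphate, had signals of 2967, 2197 and 2625 in HP pregnancy livers, against 6335, 4456 and 5001 in control livers. All 3 HP pregnancy arrays lay below the lowest control array. Its log2 change was -1.01, or 2.02-fold lower (SE 0.26, adjusted p = 0.0428, limma), with a range of -1.13 to -0.87 over the fits without 1 array. In HP lactation livers its change from the same controls was -0.04, and in HP pregnancy livers at day 21 it was -0.03. Its direct difference between HP pregnancy and HP lactation livers was -0.97 and had an adjusted p of 0.0747.

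Ebp, the sterol isomerase late in the pathway, had signals of 8951, 8785 and 9044 in HP pregnancy livers, against 12437, 12876 and 12551 in control livers. The spread within each group was small beside the gap between them, and the change was -0.50 (SE 0.12, adjusted p = 0.0381). Neither Fdps nor Ebp passed in any of the 6 fits without 1 array. Further along the list, Hmgcs1, which makes HMG-CoA in the cytosol, had 15130, 11651 and 11950 in HP pregnancy livers, against 23651, 15979 and 23032 in control livers, a change of -0.68 (SE 0.21) with an adjusted p of 0.0787. Lss, which closes the sterol rings to give lanosterol, had 570, 468 and 443 in HP pregnancy livers, against 1233, 713 and 937 in control livers. Its change was -0.93 with an adjusted p of 0.0798, and -0.51 with the mean of its probe sets (adjusted p = 0.286). It was the 1 gene of the list to pass between HP pregnancy and HP lactation livers (-1.29, adjusted p = 0.0438). Over all genes tested 0.717% passed there.

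**Figure D2:**
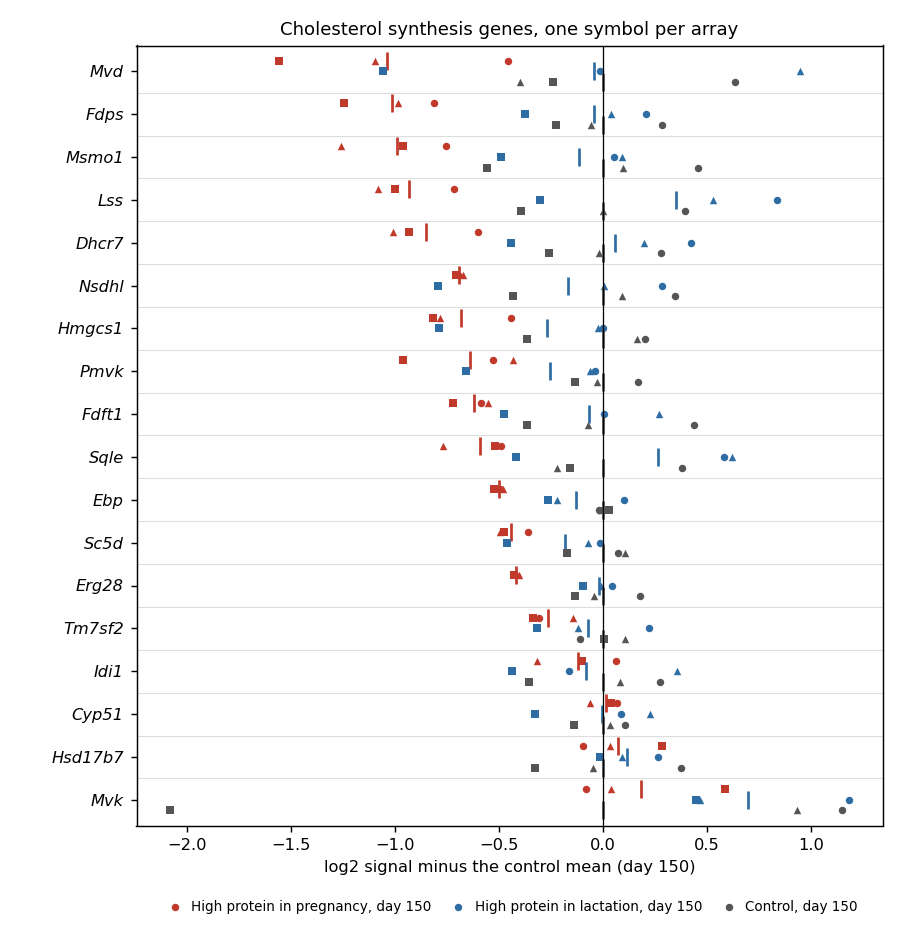
Log2 signal minus the control mean at day 150 (horizontal axis) of the 18 cholesterol synthesis genes tested, with 1 symbol per array (circle, square and triangle for replicates 1, 2 and 3, and for replicates 4, 5 and 6 of HP lactation) and a vertical tick at each group mean. The HP pregnancy arrays (red) lie to the left of the control arrays (grey) in 14 of 18 genes, and the HP lactation arrays (blue) stand around the controls; Mvk is spread by 1 low control array.

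Srebf2, which encodes SREBP2, had 264, 200 and 168 in HP pregnancy livers, against 348, 248 and 253 in control livers, and these groups overlapped (-0.43, adjusted p = 0.236). Srebf1, the regulator of fatty acid synthesis, changed by -0.41 (adjusted p = 0.334). Among 9 sterol-regulated genes outside the pathway the median was -0.33 and 1 fell (1.11% over all genes tested). This gene, Rdh11, a retinol dehydrogenase, had 750, 675 and 525 in HP pregnancy livers, against 1305, 1185 and 1277 in control livers. Its groups stood well apart, at -0.97 (SE 0.23, adjusted p = 0.0381).

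Fatty acid and triglyceride synthesis genes leaned the same way, with 19 of 21 negative and a median of -0.38. Of the 21, 9 were non-overlapping and lower and 2 fell past the test, beside 12.9% and 1.11% of all genes tested. Mogat1, a monoacylglycerol acyltransferase, had 39.3, 27.9 and 58.0 in HP pregnancy livers, against 219.6, 120.9 and 108.9 in control livers (-1.84, SE 0.36, adjusted p = 0.0238). Its HP pregnancy signals lie near the floor of the filter (57.5), where array values are least certain. Agpat2, which adds the second acyl chain to the glycerol backbone, had 5268, 4125 and 4970 in HP pregnancy livers and 7683, 7321 and 6976 in control livers (-0.62, SE 0.16, adjusted p = 0.0424). Fads6, a gene of the fatty acid desaturase family outside the list, had 1113, 1010 and 1203 in HP pregnancy livers, 2386, 2253 and 2306 in HP lactation livers, and 1998, 1585 and 1765 in control livers. It was lower than in either other group, by -0.68 against control (adjusted p = 0.0238) and by -1.07 against HP lactation (adjusted p = 0.00292).

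In the bile acid list, 14 of 19 genes were negative, with a median of -0.28, and 2 fell (1.11% over all genes tested). The median was -0.17 without control replicate 3 and -0.37 without control replicate 1. Cyp8b1, the sterol 12-alpha-hydroxylase needed for cholic acid, had 5474, 3489 and 4261 in HP pregnancy livers, against 7692, 8523 and 7414 in control livers (-0.86, SE 0.20, adjusted p = 0.0347). Aqp8, a water channel of the bile canaliculus, had 2763, 1469 and 2435 in HP pregnancy livers, against 4619, 3877 and 5881 in control livers (-1.14, SE 0.28, adjusted p = 0.0409). In both genes the highest HP pregnancy array lay below the lowest control array. Cyp27a1, which starts the alternative bile acid route, changed by -0.51 and missed the threshold (adjusted p = 0.0631), which it passed after quantile normalization (adjusted p = 0.0404). Cyp7a1, the rate-limiting enzyme of the classical route, had 1163, 1477 and 3630 in HP pregnancy livers, against 1449, 1752 and 1187 in control livers. Its groups overlapped (0.35, adjusted p = 0.713), and without HP pregnancy replicate 3 the sign turned to -0.14.

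Fatty acid oxidation and PPAR alpha target genes had none past the threshold among 23 tested (limma), with 7 lower and 0 higher at an unadjusted p under 0.05 (9.31% and 10.7% over all genes tested) and a median of -0.16. The median was -0.09 without control replicate 3 or HP pregnancy replicate 1 and -0.27 without HP pregnancy replicate 3. Cyp4a14, a fatty acid omega-hydroxylase and PPAR alpha target, had 7361, 3334 and 15852 in HP pregnancy livers, 4368, 5554 and 15654 in HP lactation livers, and 21263, 19622 and 22294 in control livers. The control arrays were close together and the other groups widely spread (-1.53 against control, SE 0.42, adjusted p = 0.0562). Acadl and Hadha, enzymes of mitochondrial beta-oxidation, changed by -0.40 and -0.38 (adjusted p = 0.0556 and 0.0776), and Acadl passed after quantile normalization (adjusted p = 0.0373). Cyp4f14, a leukotriene and fatty acid hydroxylase, fell by 0.67 (adjusted p = 0.032), and Acnat2, an acyltransferase of peroxisomes, fell by 1.33 (adjusted p = 0.0381).

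Genes that handle glucose had 15 of 19 negative, a median of -0.22 and 2 that fell (1.11% over all genes tested). Slc37a4, the glucose-6-phosphate transporter on the path by which the liver releases glucose, had 3224, 3716 and 3085 in HP pregnancy livers, 7689, 7282 and 5918 in HP lactation livers, and 4432, 5750 and 4496 in control livers. It was lower than in control livers (-0.54, SE 0.14, adjusted p = 0.0456) and lower than in HP lactation livers (-1.06, adjusted p = 0.00292), with no overlap in either case. The call against control was lost after quantile normalization (adjusted p = 0.0532) and with equal 75th percentiles (adjusted p = 0.0572). It was also lost in every fit without 1 array. Gckr, the protein that holds glucokinase inactive, had 2616, 2623 and 3240 in HP pregnancy livers and 3931, 3726 and 3774 in control livers (-0.44, adjusted p = 0.0486). Pck1, a rate-controlling enzyme of gluconeogenesis, changed by -0.33 (adjusted p = 0.362). Idh2, the mitochondrial isocitrate dehydrogenase, was the 1 gene of 20 in the citric acid cycle list to pass (2.63% over all genes tested). It fell by 0.59 (adjusted p = 0.0286).

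Among 38 amino acid catabolism genes the median was -0.25, with 30 negative. Of the 38, 15 were non-overlapping and lower, 2 non-overlapping and higher, and 2 fell, beside 12.9%, 15.1% and 1.11% of all genes tested. After quantile normalization 1 rose and 2 fell. Pcca, a subunit of propionyl-CoA carboxylase, had 2158, 1672 and 1929 in HP pregnancy livers, against 3133, 2805 and 2756 in control livers (-0.60, SE 0.12, adjusted p = 0.0249). Gcdh, which acts in lysine and tryptophan breakdown, had 3847, 3914 and 4111 in HP pregnancy livers, against 6144, 5157 and 5216 in control livers (-0.47, SE 0.12, adjusted p = 0.0409). None of 13 urea cycle and ammonia genes passed as deposited (limma), and 1 fell after quantile normalization. At an unadjusted p under 0.05, 2 were lower and 0 higher (9.31% and 10.7% over all genes tested), and the median of -0.12 was -0.02 without HP pregnancy replicate 1 and -0.24 without HP pregnancy replicate 3. Cps1, the entry enzyme of the cycle, had 28886, 33633 and 36861 in HP pregnancy livers, against 31403, 37576 and 38368 in control livers, and the groups overlapped (-0.11, adjusted p = 0.735). Asns, an amino acid response gene, ranged from 200 to 766 in HP pregnancy livers and from 122 to 362 in control livers (0.93, adjusted p = 0.238).

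Methionine and one-carbon metabolism held members that moved in opposite directions. Of 19 genes, 1 rose and 2 fell, beside 1.52% and 1.11% of all genes tested, and the median was -0.24. Mtrr, which reactivates methionine synthase, had 626, 729 and 654 in HP pregnancy livers, against 424, 328 and 330 in control livers (0.90, SE 0.22, adjusted p = 0.0409). Sardh, the mitochondrial sarcosine dehydrogenase, had 2893, 2535 and 2975 in HP pregnancy livers, against 4418, 3638 and 3746 in control livers (-0.49, SE 0.12, adjusted p = 0.0386). Aldh7a1, an aldehyde dehydrogenase that can oxidise betaine aldehyde, fell by 0.50 (adjusted p = 0.0409). None of 10 genes that write, erase or read DNA methylation passed (limma), with 1 higher and 1 lower at an unadjusted p under 0.05 (10.7% and 9.31% over all genes tested). Dnmt1 and Dnmt3a, the maintenance and a de novo DNA methyltransferase, changed by -0.31 and 0.38 (adjusted p = 0.391 and 0.345).

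Genes of protein turnover and secretion fell in places. Of 33 proteasome subunits, 25 were negative (median -0.13) and 2 fell (1.11% over all genes tested). Psmb2, a core subunit, had 1689, 1537 and 1670 in HP pregnancy livers, against 3112, 2734 and 2642 in control livers (-0.79, SE 0.14, adjusted p = 0.0132). Psmc1, an ATPase of the cap, changed by -0.50 (adjusted p = 0.0395). Psmb2 passed in 4 of the 6 fits without 1 array. Among 19 subunits of the vesicle coats COPI and COPII, a family singled out after its values were seen, 4 fell (1.11% over all genes tested) and 12 were negative. Their median was -0.11, and with the Gapdh covariate it turned to 0.06. Sec31a and Sec13, which form the outer COPII cage, changed by -0.74 and -0.51 (adjusted p = 0.0237 and 0.0339), and the COPI subunits Copz1 and Copz2 by -0.47 and -0.83 (adjusted p = 0.0428 and 0.026). Yipf3, a Golgi membrane protein, had 548, 508 and 576 in HP pregnancy livers, against 996, 996 and 934 in control livers (-0.84, SE 0.15, adjusted p = 0.0134). Its other kept probe set had the opposite sign.

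Secreted liver proteins were mostly lower without passing. In the complement and coagulation list 29 of 35 were negative (median -0.17, and -0.06 after quantile normalization). Of the 35, 11 were non-overlapping and lower and 1 fell, beside 12.9% and 1.11% of all genes tested. The gene that fell, Cfb, complement factor B, had 3671, 4009 and 3314 in HP pregnancy livers, against 6618, 5967 and 5125 in control livers (-0.68, SE 0.17, adjusted p = 0.0416). C1ra, the complement protease C1r, changed by -0.53 (adjusted p = 0.0528), and F11, coagulation factor XI, by -0.79 (adjusted p = 0.0503). Itih1 and Itih2, heavy chains of the inter-alpha-trypsin inhibitor, fell by 0.64 and 0.51 (adjusted p = 0.0381 and 0.0409). They were 2 of 5 genes of a family picked after its values were seen (1.11% over all genes tested). Alad, the second enzyme of heme synthesis, fell by 0.68 (adjusted p = 0.0395), with an opposite sign in its other kept probe set. Rdh16, a retinol and steroid dehydrogenase, fell by 0.59 (adjusted p = 0.0481). Gnas, an imprinted gene that encodes the stimulatory G protein alpha subunit, had 7879, 7703 and 8544 in HP pregnancy livers, against 11069, 10836 and 11149 in control livers (-0.46, SE 0.12, adjusted p = 0.0456).

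Several of these lists hold highly expressed liver genes, and the strongest signals as a class leaned downwards. The tenth of genes with the highest signal had a median change of -0.09, and all 12 hepatocyte markers were negative (median -0.16). After quantile normalization these medians were -0.01 and -0.04, and 5 of the 12 hepatocyte markers were positive. The cholesterol median stayed at -0.60 and the fatty acid and triglyceride median at -0.38 after that step, amino acid catabolism moved to -0.19, and oxidative phosphorylation (70 genes) moved to -0.05 with 29 positive and 4 that fell, against -0.14 with 12 positive and 0 past the threshold as deposited (limma). At an unadjusted p under 0.05, 15 oxidative phosphorylation subunits were lower and 1 was higher as deposited, beside 9.31% and 10.7% of all genes tested.

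**Figure D3:**
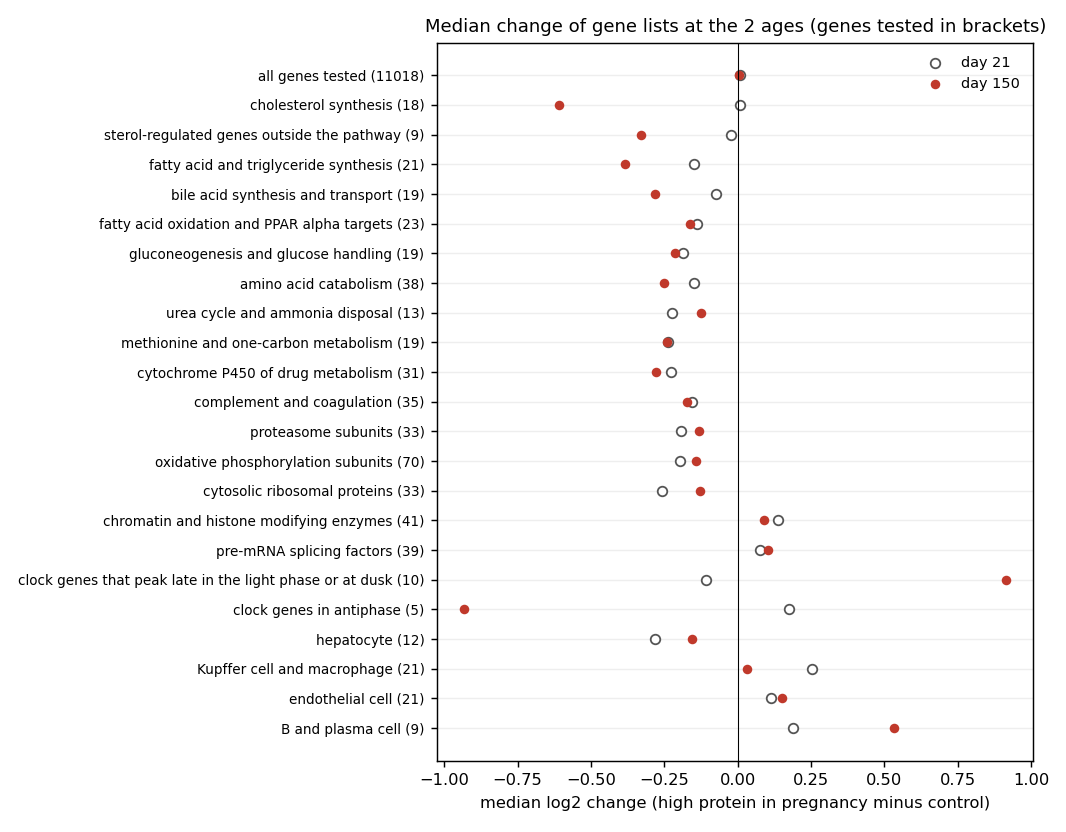
Median log2 change (HP pregnancy minus control, horizontal axis) of each gene list at day 150 (filled red) and at day 21 (open grey), with the number of genes tested in brackets. The cholesterol list stands at -0.61 at day 150 and 0.01 at day 21, and the clock lists stand at 0.92 and -0.93 at day 150.

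Clock genes of the evening arm had positive changes and those of the antiphase arm negative ones. All 10 tested genes of the evening arm, which peak around dusk, had a positive change (median 0.92). All 5 antiphase genes had a negative one (median -0.93), and 1 of the 15 passed, beside 2.63% of all genes tested. Nr1d2, which encodes the repressor Rev-erb beta, had 5959, 11223 and 8424 in HP pregnancy livers, 6442, 7986 and 5487 in HP lactation livers, and 5431, 3384 and 4017 in control livers. It rose by 0.98 against control (SE 0.21, adjusted p = 0.0286), with the HP pregnancy arrays all above the highest control array. The pools of a group differed strongly from one another in other clock genes.

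Dbp, an output transcription factor of the clock, had 993, 5753 and 3928 in HP pregnancy livers, 5259, 5997 and 1886 in HP lactation livers, and 1739, 161 and 888 in control livers. Within the HP pregnancy group replicate 1 lay among the controls, and the change of 2.17 (SE 0.76) had an adjusted p of 0.12. Per2, a clock repressor, had 183, 475 and 343 in HP pregnancy livers, against 140, 145 and 119 in control livers (1.21, adjusted p = 0.0997). Arntl, which encodes the activator Bmal1, had 1136, 276 and 390 in HP pregnancy livers, against 862, 987 and 1017 in control livers (-0.94, adjusted p = 0.203). Again replicate 1 stood on the control side and replicates 2 and 3 did not. Nfil3, a repressor that opposes Dbp, changed by -0.93 (adjusted p = 0.101). The evening-arm median in HP lactation livers against the same controls was 1.0, and in HP pregnancy livers at day 21 it was -0.11. The mice lived in a 12 hour light and 12 hour dark cycle, the hour at which each liver was taken is not given in the sources used here, and its part in these values was not tested.

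**Figure D4:**
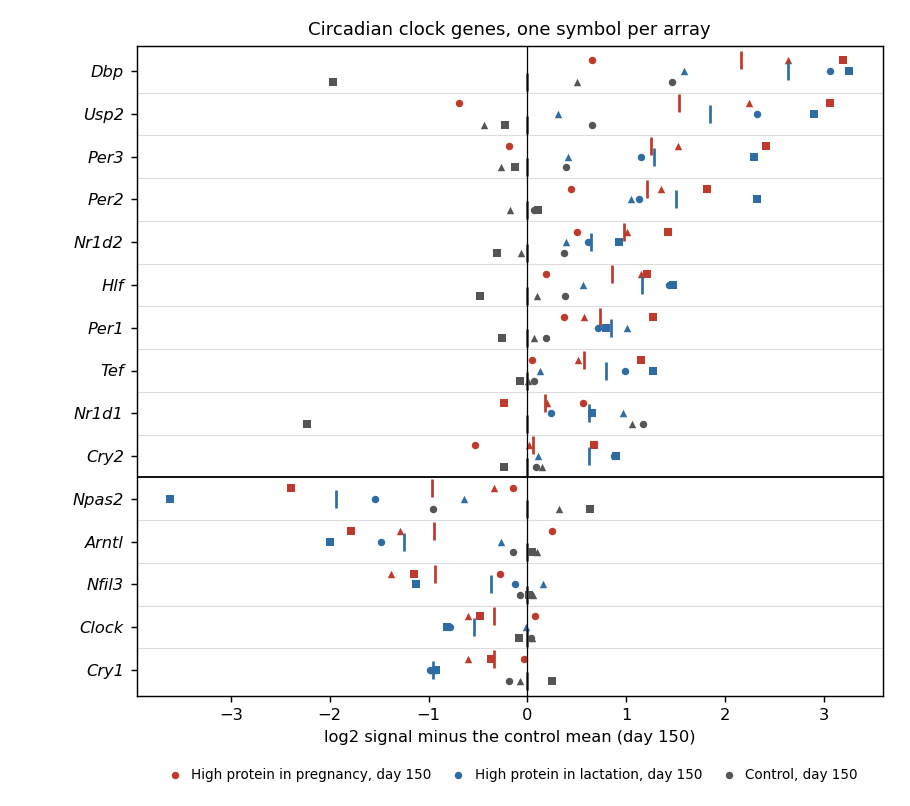
Log2 signal minus the control mean at day 150 (horizontal axis) of 10 evening-arm clock genes (above the black line) and 5 antiphase genes (below it), with symbols as in the plot of cholesterol genes. HP pregnancy arrays are red, HP lactation arrays blue and control arrays grey; the HP pregnancy circle (replicate 1) often lies near the controls while the square and triangle lie apart.

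The genes that rose most in HP pregnancy livers were weakly expressed. Mycn, a proto-oncogene of the Myc family, had 68.5, 78.9 and 85.7 in HP pregnancy livers, 67.4, 74.3 and 114.1 in HP lactation livers, and 4.3, 5.8 and 13 in control livers. Its change of 3.49 (SE 0.47, adjusted p = 0.00308) came from control values near the bottom of the scale, and detection calls were not used here. Mycn was also the 1 gene (0.00908%) that passed between HP lactation and control livers (3.59, adjusted p = 0.00412), a comparison that uses the same control arrays. At day 21 it had 121.8, 160.6 and 133.4 in HP pregnancy livers, against 138.4, 257.2 and 83.5 in control livers. Fgfr1, a fibroblast growth factor receptor, rose by 1.59 (adjusted p = 0.0375), and Gdpd5, a glycerophosphodiesterase, by 1.44 (adjusted p = 0.0395).

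Bend3, a chromatin repressor, had 347, 463 and 453 in HP pregnancy livers, against 236, 170 and 191 in control livers (1.08, SE 0.17, adjusted p = 0.0132). L3mbtl3, which reads methylated lysines, had 474, 544 and 604 in HP pregnancy livers, against 283, 241 and 245 in control livers (1.07, SE 0.18, adjusted p = 0.0132). Each passed in 5 of the 6 fits without 1 array. Brwd3, a bromodomain protein, rose by 1.20 (adjusted p = 0.0381), though its 2 other kept probe sets disagreed in sign. The list of chromatin and histone modifying enzymes had 30 of 41 positive, a median of 0.09 and none past the threshold (limma). Of the 41, 14 were non-overlapping and higher and 4 non-overlapping and lower, beside 15.1% and 12.9% of all genes tested. At an unadjusted p under 0.05, 6 were higher and 2 lower (10.7% and 9.31% over all genes tested). Tbx3, a T-box repressor of the pericentral zone and a Wnt target, had 1384, 948 and 765 in HP pregnancy livers, against 387, 399 and 709 in control livers (1.07, SE 0.24, adjusted p = 0.0334).

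Receptors of the activin and bone morphogenetic protein pathway, a family picked after its values were seen, were mostly higher. Of 16 receptors and Smads, 13 were positive (median 0.21). Of the 16, 7 were non-overlapping and higher and 3 rose, beside 15.1% and 1.52% of all genes tested. Bmpr2, the type II receptor for bone morphogenetic proteins, had 5736, 8333 and 7682 in HP pregnancy livers, against 4167, 4095 and 4187 in control livers (0.79, SE 0.15, adjusted p = 0.0217). Acvr2a, an activin receptor, had 2429, 2594 and 2654 in HP pregnancy livers, against 1603, 1381 and 1769 in control livers (0.70, SE 0.15, adjusted p = 0.0297). Smad4, the shared mediator inside the cell, rose by 0.41 (SE 0.11, adjusted p = 0.0488), and with the mean of its probe sets the change was 0.15 (adjusted p = 0.624).

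Protein modification enzymes changed in both directions. Among 10 subunits of the N-terminal acetyltransferases, also picked afterwards, Naa15, Naa30 and Naa50 rose (0.63, 0.75 and 0.63) and Naa25 fell (-0.63). Over all genes tested 1.52% rose and 1.11% fell. The median over the family was 0.08, or -0.02 with the Gapdh covariate. Naa30 had 2107, 2684 and 2572 in HP pregnancy livers, against 1465, 1432 and 1464 in control livers (adjusted p = 0.0132). It was also higher than in HP lactation livers (0.61, adjusted p = 0.0385). Edem3, which trims mannose on misfolded glycoproteins, had 3936, 3407 and 3411 in HP pregnancy livers, against 2040, 2074 and 1939 in control livers (0.83, SE 0.14, adjusted p = 0.0139). Ddost, a subunit of the enzyme that attaches those glycans, fell by 0.56 (adjusted p = 0.0421). It was the 1 of 12 subunits to pass in a family also picked afterwards. Vcpip1, a deubiquitinase, rose by 1.03 and Dcun1d5, which promotes neddylation, by 0.76 (adjusted p = 0.0134 and 0.0132). With the mean of all their probe sets these changes were 0.50 and 0.23 (adjusted p = 0.152 and 0.578). The membrane ubiquitin ligases Marchf6 and Marchf7 rose by 0.55 each (adjusted p = 0.0334 and 0.0409). They were 2 of 8 Marchf genes, again picked afterwards (1.52% over all genes tested).

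Zinc transport genes were picked in the same way. Of 8 exporters of the Slc30 family 2 rose (1.52% over all genes tested), Slc30a4 (0.65, adjusted p = 0.0449) and Slc30a7 (0.53, adjusted p = 0.0495). Of 13 importers of the Slc39 family 1 fell (1.11% over all genes tested). Both exporter calls were lost after quantile normalization (adjusted p = 0.0602 and 0.0714) and with equal 75th percentiles (0.0582 and 0.0651), and Slc30a7 had 0.18 with the mean of its probe sets (adjusted p = 0.422). The importer, Slc39a4, had 587, 539 and 479 in HP pregnancy livers, 1028, 997 and 1001 in HP lactation livers, and 1074, 884 and 1169 in control livers. It was lower than in control livers (-0.96, SE 0.16, adjusted p = 0.0132) and than in HP lactation livers (-0.92, adjusted p = 0.0214).

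Further genes were higher in HP pregnancy livers. Twistnb, a subunit of RNA polymerase I, had 3223, 3211 and 3373 in HP pregnancy livers, 2020, 2458 and 2227 in HP lactation livers, and 1996, 2256 and 2213 in control livers (0.60 against control, SE 0.10, adjusted p = 0.0132). Il13ra1, a receptor chain for interleukin 13, had 1472, 1414 and 1512 in HP pregnancy livers, against 900, 908 and 627 in control livers (0.87, SE 0.15, adjusted p = 0.0132). The exocyst, which tethers vesicles to the plasma membrane, was also picked after its values were seen. Of its 9 subunits 5 were positive and 4 negative (median 0.02), and 2 rose (1.52% over all genes tested). Groups did not overlap in 3 higher and 2 lower subunits (15.1% and 12.9% over all genes tested). Exoc5 and Exoc6 rose by 0.52 and 0.75 (adjusted p = 0.0354 and 0.0286), and Exoc6 had 0.24 with the mean of its probe sets (adjusted p = 0.367).

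Among the lower genes, Tmie had the largest change. Tmie, known for its part in mechanotransduction in the inner ear, had 17, 19.3 and 8.3 in HP pregnancy livers, 174.2, 79.8 and 117.2 in HP lactation livers, and 133.3, 141.7 and 442.4 in control livers. Its change of -3.86 (SE 0.46, adjusted p = 0.00118) rested on HP pregnancy values near the bottom of the scale, and it was also -3.07 against HP lactation livers (adjusted p = 0.00968). Rassf4, a Ras association domain protein, had 282, 215 and 287 in HP pregnancy livers, against 764, 832 and 722 in control livers (-1.57, SE 0.25, adjusted p = 0.0132). S100a10, the annexin A2 partner, had 11744, 9061 and 7994 in HP pregnancy livers, against 16400, 18079 and 17175 in control livers (-0.86, SE 0.15, adjusted p = 0.0132). Vgll4, a cofactor of TEAD transcription factors, and Letm1, an ion exchanger of the inner mitochondrial membrane, fell by 0.92 and 0.99 (adjusted p = 0.0237 and 0.0217).

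At day 21 the same maternal diet gave 0 genes past the threshold (0% of 11018, limma), a smallest adjusted p of 0.0714, and 1100 genes at an unadjusted p under 0.05. The day 21 and day 150 comparisons share no arrays. Of the 168 genes higher at day 150, 161 had a positive change at day 21 (median 0.33), and of the 122 lower ones 106 had a negative change (median -0.20), while 7529 of all 11018 genes had the same sign at both ages. The change at day 150 differed from that at day 21 in 2 genes (0.0182%, with 426 at an unadjusted p under 0.05), both lower at day 150. Rassf4 had 241, 162 and 116 in HP pregnancy livers at day 21, against 94.1, 93.1 and 89.5 in control livers, so that it ran the other way in the young mice. Tmie had 351, 511 and 352 in HP pregnancy livers at day 21, against 380, 272 and 404 in control livers. The cholesterol genes, with a median of 0.01 at day 21, had no member whose change differed between the ages at the threshold.

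**Figure D5:**
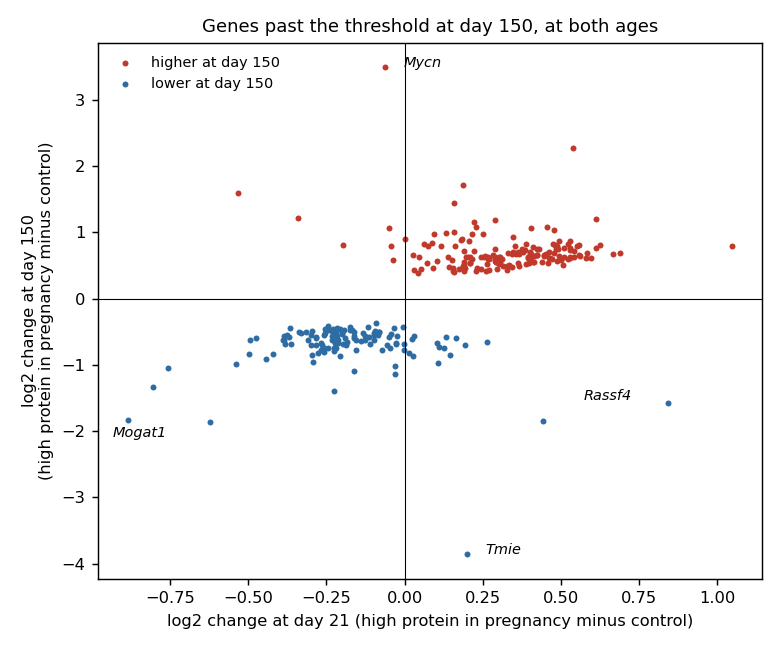
Log2 change (HP pregnancy minus control) at day 150 (vertical axis) against that at day 21 (horizontal axis) of the 290 genes that passed the test at day 150, with 1 point per gene. Of the 168 genes higher at day 150 (red) 161 lie right of 0, and of the 122 lower (blue) 106 lie left of 0; Rassf4 and Tmie lie on the opposite side.

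Set directly against HP lactation livers of the same age, 79 genes (0.717%) differed, 30 higher and 49 lower in HP pregnancy livers. This comparison shares the HP pregnancy arrays with the one above, so its calls are not a second observation of them. Tenm3, a teneurin adhesion protein, had 269, 251 and 282 in HP pregnancy livers, 492, 483 and 501 in HP lactation livers, and 523, 358 and 436 in control livers (-0.88 against HP lactation, adjusted p = 0.0132). Tasor, a subunit of the HUSH silencing complex, had 558, 670 and 645 in HP pregnancy livers, 242, 430 and 275 in HP lactation livers, and 363, 433 and 302 in control livers (1.02, adjusted p = 0.0313). Lztfl1, which controls cargo entry into cilia, had 1169, 1252 and 1238 in HP pregnancy livers, 756, 829 and 801 in HP lactation livers, and 700, 792 and 901 in control livers (0.62, adjusted p = 0.0313). Against control livers Lztfl1 also changed by 0.62, and by 0.22 with the mean of its probe sets (adjusted p = 0.576). For Tenm3, Tasor and Lztfl1 the HP pregnancy arrays lay apart from both other groups. The count fell to 2 without HP pregnancy replicate 3 or HP lactation replicate 6, to 3 without HP pregnancy replicate 2 or HP lactation replicate 4, and to 22 without HP pregnancy replicate 1, and it was 251 without HP lactation replicate 5.

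No marker of the other liver cell types passed the threshold as deposited, and in pooled bulk tissue fewer cells of a type and less RNA per cell cannot be told apart. Endothelial markers (21 of 21 tested) summed to 23113 to 28603 in HP pregnancy livers and 18618 to 23116 in control livers, with none past the threshold (limma) and 5 higher and 1 lower at an unadjusted p under 0.05 (10.7% and 9.31% over all genes tested). Their median was 0.15, or 0.02 with the Gapdh covariate. Kdr, the receptor of vascular endothelial growth factor, had 1449, 1553 and 1128 in HP pregnancy livers, against 825, 1005 and 1011 in control livers (0.53, adjusted p = 0.0549), and passed with equal 75th percentiles (adjusted p = 0.0428). Kupffer cell and macrophage markers (21 of 22) summed to 38844 to 41939 in HP pregnancy livers and 32565 to 44013 in control livers. B and plasma cell markers (9 of 17) summed to 26736 to 27762 in HP pregnancy livers and 25895 to 30326 in control livers. Of the 9, 7 were positive, 4 non-overlapping and higher and 1 non-overlapping and lower (15.1% and 12.9% over all genes tested). The median was 0.53, or 0.20 with the Gapdh covariate, and 0.52 in HP lactation livers against the same controls. Jchain had 474, 653 and 807 in HP pregnancy livers, against 213, 382 and 449 in control livers (0.92, adjusted p = 0.108). The part of these cell types in the differences above was not tested.

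The genes that rose and those that fell differed in features that the arrays did not measure. The median genomic span was 49.3 kb for the 168 higher genes and 17.1 kb for the 122 lower ones, beside 23.6 kb for all genes tested. The median GC content of their promoters was 65.0% for the higher genes (128 with a promoter) and 61.0% for the lower ones (102 with a promoter), beside 60.7% for all genes tested. The inverted CCAAT box was present in 28.9% and 42.2% of these promoters, beside 38.6% for all genes tested. Other probe sets of the same gene passed the filter for 107 of the higher genes and 48 of the lower ones, and in 73 and 30 of these all had the same sign. Of the 68 named genes that passed, 15 had a change over 1.5 times smaller with the mean of all their probe sets. Beside those given above they were Alad (-0.09), Brwd3 (0.51), Edem3 (0.44), Il13ra1 (0.52), Kpna3 (0.37), Naa15 (0.41), Naa25 (-0.33), S100a10 (-0.48) and Yipf3 (-0.38).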

How the data were processed

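The deposited values were array intensity signals, made by the authors with MAS5 in GCOS 1.4 per the submitters' processing notes; the mean of every array, trimmed by 2% at each end, was 500. The steps below started from log2 of these signals. Of 45101 probe sets, 34945 had 1 gene symbol in the platform annotation, 932 several and 9160 none, and the last groups and 64 control sets were left out. Probe sets below the median mean signal (57.5) were dropped (22519 kept), and each gene was represented by its brightest probe set, leaving 11018 genes. limma 3.58.1 in R 4.3.3 fitted 6 group means over all 18 arrays (lmFit, eBayes with trend; 12 residual and 6.47 prior degrees of freedom, median SE 0.19), two-sided, with Benjamini-Hochberg adjustment. The script was tested on simulated data. The number of arrays limits the precision.

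Members and lists were chosen with earlier results of these data known. The families of coat proteins, receptors and Smads, acetyltransferases, exocyst, oligosaccharyltransferase (Ddost), Marchf, Rnf and Zfp genes, zinc transporters and inter-alpha-trypsin inhibitors were added after seeing values. The text names, among genes past the threshold with non-overlapping groups, those with the largest change (15 per direction) or smallest p (10 per direction), list members that passed or ranked among the 4 smallest p of a list, up to 5 per direction of the other comparisons, and members of the added families. Log2 change is the first named group minus the second, and per-array values are given in replicate order. Alternatives covered the filter, scaling, probe set choice, variance model, samples in the fit, a replicate block and leaving out each array; the Gapdh covariate and the fit without arrays with Xist signal were added after seeing the data. Array correlations were 0.971 to 0.974 within HP pregnancy livers, 0.967 to 0.969 within control livers and 0.960 to 0.967 between them. Scan dates were not used here. Gene symbols were updated through gene IDs for 34741 probe sets.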

Additional observations from a re-analysis of the deposited data

Results flagged for a closer look

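The HP pregnancy response differed between the ages in 2 genes by the interaction test (limma): Rassf4, by -2.42 on the log2 scale, and Tmie, by -4.06. The HP pregnancy response at day 150 also differed from the HP lactation response in genes tested directly between these groups. The lower ones in HP pregnancy livers included Tmie (-3.07), Ctdspl, a phosphatase gene (-1.19), Fads6 (-1.07), Slc37a4 (-1.06) and Tenm3 (-0.881). The higher ones included Tasor (1.02), Zfp654, a zinc finger gene (0.852), Lztfl1 (0.617), Kpna3, a nuclear import receptor (0.582), and Twistnb (0.553). Tmie rests on signals of 8.3 to 19.3 in HP pregnancy livers.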

How the results depend on the processing

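Counts of genes depended on the processing. For HP pregnancy against control at day 150 (290), other settings gave 146 with no filter, 19 with the mean of all probe sets, 72 with no trend, 1053 with array weights, 763 at an adjusted p under 0.10, 473 with the compared arrays alone, 126 with arrays of the same day, 125 with a replicate block, 591 without the arrays with Xist signal, 5 with the Gapdh covariate, and 2 to 162 with 1 array left out. Equal 75th percentiles gave 207, of which 150 were higher and 57 lower. For HP pregnancy against HP lactation (79), they gave 38 with no filter, 130 with the filter at the 70th percentile, 39 with the mean of all probe sets, 16 with no trend, 126 with array weights, 418 at 0.10, 1 with the compared arrays alone, 4 with arrays of the same day, 3 without the Xist arrays, 25 with the covariate, and 2 to 251 with 1 array left out; equal 75th percentiles gave 60 higher and 25 lower. For the difference between the ages (2), the settings gave 1 with no filter, the 70th percentile, 50 added to each signal, every kept probe set, no Xist arrays or the covariate, 0 with the mean of all probe sets, no trend or a replicate block, and 0 to 2 with 1 array left out. Of the 68 named genes that passed, 40 passed with the replicate block and 63 after quantile normalization. The 5 lost after quantile normalization were Gdpd5, Slc30a4, Slc30a7, Slc37a4 and Smad4. With equal 75th percentiles 47 passed, and with the mean of all probe sets 10. The 21 lost with equal 75th percentiles included Agpat2, Alad, Aldh7a1, Cfb, Copz1, Ddost, Ebp, Fdps, Gcdh, Gckr and Gnas. The others were Itih2, Naa25, Psmc1, Rdh16, Sardh, Sec13, Slc30a4, Slc30a7, Slc37a4 and Smad4. None of the 68 changed sign in the settings with 1 value per gene, where the filter at the 70th percentile kept 63 of them. Over the 290 genes past the threshold, 107 higher and 48 lower genes had other kept probe sets. Some of these sets had the opposite sign in 34 and 18 genes. Genes past no threshold that changed sign were Cps1 (0.0143 after quantile normalization), Dnmt3a (-0.017 with the mean of all probe sets) and Cyp7a1 (-0.14 to 0.68 with 1 array left out, negative without HP pregnancy replicate 3). The replicate numbers did not pair the pools (correlations of same-numbered arrays -0.03, -0.01 and 0.00), so a call lost under the block is no weaker effect. The cause of each shift was not tested. Signals near the filter floor limit Mycn, Tmie and Mogat1.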
